A study of Canis lupus familiaris with 20 samples.

Results

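Cartilage of the vertebral epiphysis was examined for genes whose change between postnatal day 9 and day 14 differed between dogs with mucopolysaccharidosis VII (MPS VII) and control dogs. All 20 libraries of the series entered this comparison, 20 of 20, because it needs the mean of each of the 4 groups. The groups were heterozygous control dogs at day 9 and at day 14 and homozygous affected dogs at day 9 and at day 14, with 5 animals and 5 libraries each. The affected dogs belong to a naturally occurring line with a missense change in GUSB, the gene of the lysosomal enzyme beta-glucuronidase. The controls carry the same change on 1 of their copies of the gene, so every group carries it at least once. For each animal, cartilage of both ends of the T12 vertebra (cranial and caudal) was combined before RNA extraction. Controls and affected dogs were matched by litter, but neither the litter nor the sex of an animal is in the labels used here.

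In MPS VII the fragments of dermatan, heparan and chondroitin sulphate that beta-glucuronidase would trim build up in lysosomes, and cartilage, which is rich in these chains, is among the tissues affected. The epiphysis of a young vertebra is at first made of cartilage. In endochondral ossification its central chondrocytes stop dividing, enlarge and mineralise their matrix, after which vessels, osteoclasts and bone-forming cells enter and a secondary centre of bone appears. In MPS VII this step is delayed or fails, and the ages sampled lie around its start in healthy dogs.

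The count table pairs its Ensembl gene identifiers with no symbols, and none could be matched to a symbol (0 found in the table at hand, made for a different assembly). Genes are therefore given by position in CanFam3.1, with the identifier for 4 of them, and their functions are not stated. Of the 44 genes that the naming rule and the later choices picked, 12 overlap the span of another gene of the table, so their counts are less certain. Some of these overlaps are on the same strand, as for ENSCAFG00000008741 on chromosome 33. Others are on the other strand, as for the gene on chromosome 12 from 71801379. For the latter the strand setting of the counting matters, and it is not given in the sources used here. The tissue could not be checked against cartilage markers, nor the genotype against GUSB. Libraries held between 15772761 and 28028365 counts. That of affected day 9 replicate 3 stood apart: the most abundant gene took 7.48% of its counts, while the other affected libraries of that age had 25.4% to 33.2%. No library measure differed between genotypes in its age change after adjustment, by exact two-sided permutation of genotype within each age over 6 measures. The smallest p was that of the scaling factor (exact permutation p = 0.0463, adjusted p = 0.128). Its means were 0.87 and 1.17 in controls at day 9 and day 14, and 0.95 and 1.05 in affected dogs. The share of the most abundant gene came to 31.9% ± 3.62 and 17.5% ± 5.83 in controls at day 9 and day 14, and to 25.6% ± 10.5 and 22.0% ± 4.25 in affected dogs (SD, n = 5 each; exact permutation p = 0.0642, adjusted p = 0.128). For total counts the exact permutation p was 0.172 (adjusted p = 0.258). Mean totals were lower at day 14 in both genotypes, at 2.62e+07 and 1.85e+07 in controls at day 9 and day 14, and 2.43e+07 and 1.91e+07 in affected dogs.

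The age change differed between genotypes in 474 of 14550 tested genes, which is 3.26% (edgeR quasi-likelihood test, Benjamini-Hochberg adjusted p under 0.05). The difference is the log2 change from day 9 to day 14 in affected dogs minus the same change in controls, called the interaction here. It was negative in 354 genes (2.43%), whose level rose less or fell more with age in affected dogs. It was positive in 120 genes (0.825%), whose level rose more or fell less. Among the called genes, negative interactions were also larger. Of the 354 genes, 233 had an interaction of at least 2-fold (1.60% of tested genes) and 73 of at least 4-fold. Of the 120, 50 reached 2-fold (0.344% of tested genes) and 2 reached 4-fold. The median interaction was -1.24 in the 354 genes and 0.92 in the 120, beside -0.01 over all genes tested. The median standard error was 0.28 in the 354 genes and 0.21 in the 120. A gene with a larger standard error needs a larger interaction to pass, and the part of this in the sizes was not tested. At an unadjusted p under 0.05 there were 2689 genes (18.5%). In bulk tissue, fewer cells of a type and less RNA per cell cannot be told apart, and this holds for every gene below.

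These counts moved with single libraries. All 474 interactions kept their sign in each of the 20 fits that left out 1 library. Those fits share most libraries with the fit that chose the genes, so the kept signs are no separate support. The number of genes was 199 without control day 14 replicate 4, 224 without control day 14 replicate 1, and 253 without affected day 14 replicate 5. It was 248, 308, 276 and 263 without control day 9 replicates 2, 3, 4 and 5, but 558 without replicate 1 of that group. It rose to 759, of them 488 negative and 271 positive, without affected day 9 replicate 3, the library that stood apart. The number was also above 474 without control day 14 replicate 2 (542) and without affected day 9 replicates 4 and 5 (564 and 477). Genes with a negative interaction outnumbered those with a positive one in every one of these fits. DESeq2 called 932 genes on the same counts, 631 negative and 301 positive, and 473 of the 474 were among them.

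**Figure D1:**
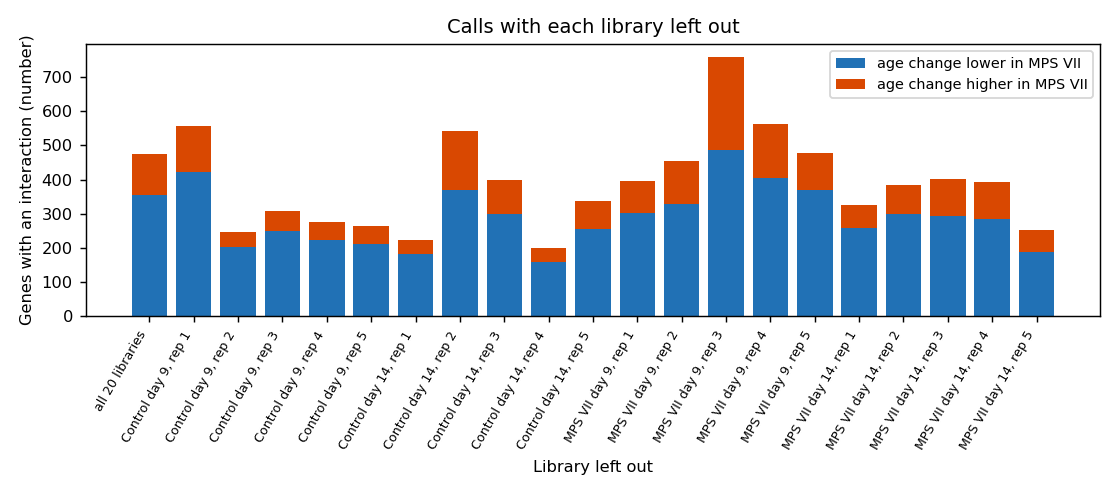
Number of genes with an interaction (adjusted p under 0.05) when all 20 libraries were used and when each was left out in turn, split by direction. The total runs from 199 without control day 14 replicate 4 to 759 without affected day 9 replicate 3, and the negative direction (blue) is the larger part of every bar.

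Most of the difference came from genes that changed with age in controls. Of the 354 genes with a negative interaction, 271 rose in controls while their change in affected dogs did not pass the test, with a median log2 change of 1.44 in controls and -0.000703 in affected dogs. A further 61 rose in both genotypes, by a median of 1.81 in controls and 0.75 in affected dogs. Another 13 rose in controls and fell in affected dogs, and 9 fell in affected dogs only. Of the 120 genes with a positive interaction, 96 fell in controls without a call in affected dogs, with median changes of -1.09 and -0.11. The rest comprised 12 that fell in both genotypes, 8 that rose in affected dogs only and 4 that fell in controls and rose in affected dogs. As background, 42.5% of all tested genes passed the test for age in controls, 21.8% higher and 20.7% lower. In affected dogs 22.7% passed, 12.7% higher and 9.92% lower. The age changes share their libraries with the interaction, so these numbers describe the called genes and are no separate evidence.

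**Figure D2:**
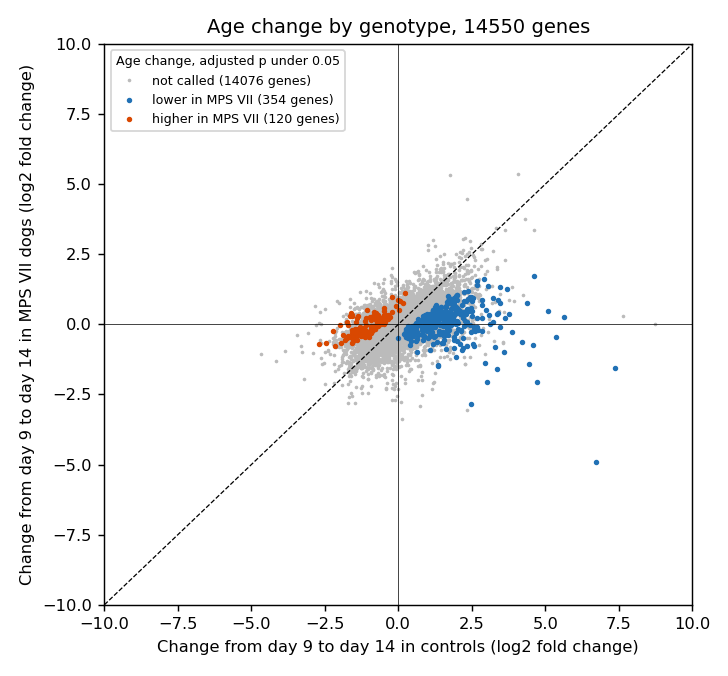
Log2 change from day 9 to day 14 in controls (horizontal axis) and in MPS VII dogs (vertical axis) for each of 14550 genes, with the dashed line marking equal change. The 354 genes with a negative interaction (blue) lie to the right and the 120 with a positive one (orange) to the left, mostly near 0 on the vertical axis.

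**Figure D3:**
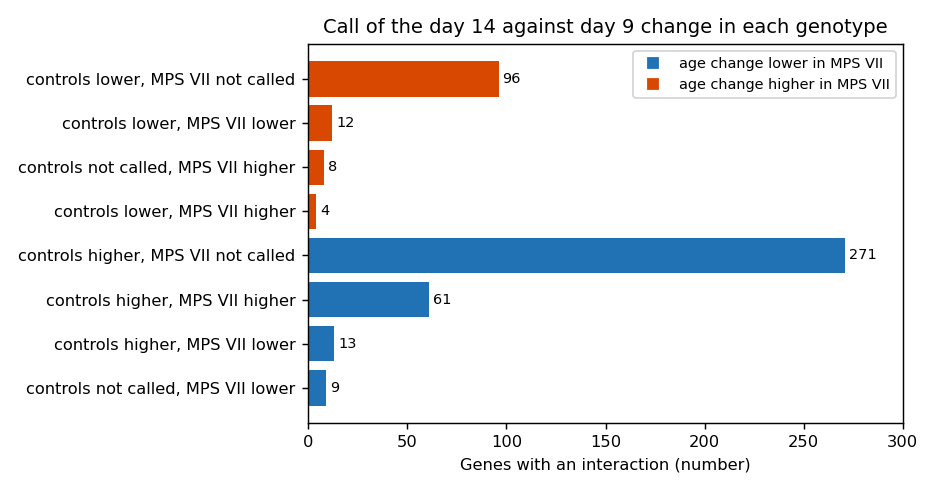
Number of genes with an interaction by whether the day 14 against day 9 change was called higher, lower or not called in each genotype. The longest bars are the 271 genes higher with age in controls and not called in MPS VII dogs and the 96 genes lower in controls and not called in MPS VII dogs.

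Seen across genotypes, most genes with an interaction had a called difference at day 14. The genotype comparisons share their libraries with the interaction, so these numbers too describe the called genes and are no separate evidence. Of the 354 genes, 272 did not differ between genotypes at day 9 by the test and were lower in affected dogs at day 14, where the median genotype difference was -1.13. Another 20 were lower in affected dogs at both ages, by a median of -1.37 at day 9 and -3.30 at day 14. In 45 genes the affected dogs were higher at day 9 and no difference was called at day 14, with medians of 0.96 and -0.20, and 4 were higher at day 9 and lower at day 14. Of the 120 genes, 96 were higher in affected dogs at day 14 only, by a median of 0.85, and 14 at both ages, by medians of 1.16 and 2.59. Over all tested genes, 8.38% passed the test for genotype at day 9, 6.18% higher and 2.21% lower in affected dogs, and 22.0% at day 14, 11.3% higher and 10.7% lower.

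The control libraries of day 14 were the ones that stood out. All 5 lay above the other 15 libraries in 223 of the 354 genes (63.0%), where the same held for 4.96% of all tested genes. All 5 lay below the other 15 in 66 of the 120 genes (55.0%), against 3% of all tested genes. These libraries chose the genes, so the shares are a description only.

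A median over the genes was taken in each library on the log2(CPM + 0.5) scale, relative to the control mean of day 9, where CPM are counts per 1000000 of the scaled library size. Over the 354 genes it was 1.50, 1.10, 1.22, 1.62 and 1.27 in the control libraries of day 14, and between -0.10 and 0.37 in the other 15. Over the 120 genes it was -1.17, -0.76, -0.88, -1.13 and -0.91 in the control libraries of day 14 and between -0.28 and 0.12 in the others. Control day 14 replicates 1 and 4 stood farthest out in both sets. They were the highest pair of their group in 229 of the 354 genes (64.7%) and in 18.7% of all tested genes. They also had the lowest shares of the most abundant gene in their group, 10.4% and 12.9%, against 19.1% to 24.7%. The part of this in the result was not tested. Without replicate 1 of that group 224 genes had an interaction, and without replicate 4 there were 199. Outside the control libraries of day 14, affected day 9 replicate 3 was the farthest out, at 0.37 and -0.28.

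**Figure D4:**
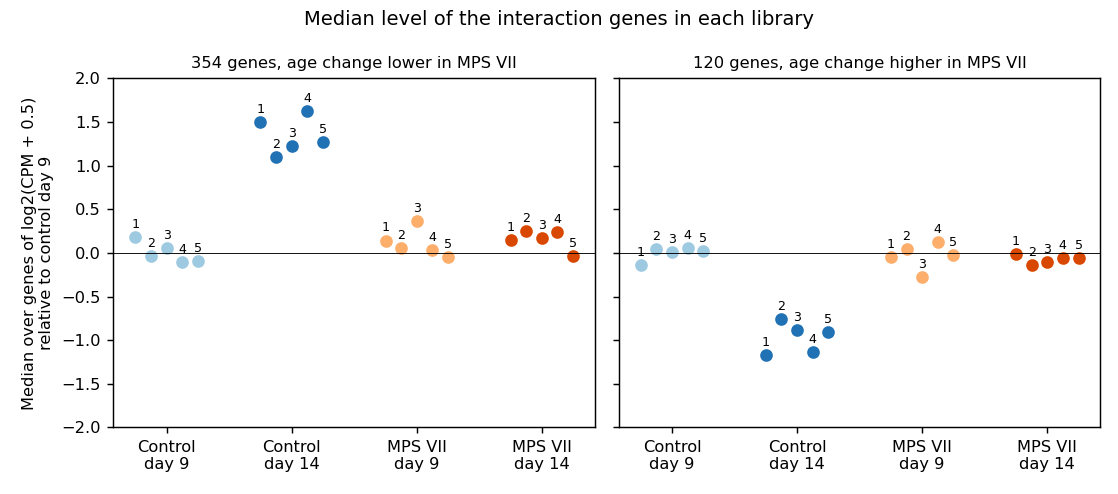
Median over genes of log2(CPM + 0.5) relative to the control mean of day 9, for the 354 genes with a negative interaction (left) and the 120 with a positive one (right). Each point is 1 library, numbered by replicate, and the 5 control libraries of day 14 lie at 1.10 to 1.62 on the left and -1.17 to -0.76 on the right, apart from the other 15.

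Among genes that rose in controls but did not pass the test in affected dogs, the smallest p belonged to ENSCAFG00000008741, on chromosome 33 from 785673 to 1092293. Its control libraries of day 9 held 7.50, 7.56, 6.34, 5.45 and 6.40 CPM, those of day 14 84.5, 49.4, 50.5, 101 and 63.2 CPM, the affected libraries of day 9 9.89, 10.02, 10.6, 11.8 and 10.1 CPM and those of day 14 12.9, 13.4, 17.4, 14.2 and 10.7 CPM. All 5 control libraries of day 14 were above every other library, and the lowest of them stood at 49.4 CPM against a highest of 17.4 CPM in affected dogs of the same age. The interaction was -2.99 ± 0.25 (SE, edgeR adjusted p = 5.32e-07), from a log2 age change of 3.38 ± 0.18 in controls and 0.39 ± 0.17 in affected dogs (adjusted p = 0.103).

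The gene ENSCAFG00000008977, on chromosome 18 from 42616367 to 42665127, had 10.1, 9.73, 10.5, 6.96 and 10.97 CPM in controls at day 9 and 50.04, 29.1, 36.2, 61.5 and 36.1 CPM at day 14. In affected dogs it had 8.08, 6.85, 8.14, 6.77 and 7.86 CPM at day 9 and 7.30, 7.42, 4.52, 6.73 and 6.01 CPM at day 14. Only the control group of day 14 stood apart, and both affected groups overlapped. The interaction was -2.37 ± 0.25 (edgeR adjusted p = 3.48e-05). Without any 1 library it stayed between -2.47 and -2.19.

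Controls rose in a gene on chromosome 6 from 16270227 to 16293442, from 3.79 ± 0.885 to 18.4 ± 4.88 CPM, while affected dogs stood at 4.36 ± 0.793 and 4.73 ± 0.690 CPM (SD, n = 5 each), an interaction of -2.16 ± 0.28 (edgeR adjusted p = 0.000454). In controls a gene on chromosome 7 from 60736854 to 60949331 climbed from 3.43 ± 1.61 to 37.3 ± 17.3 CPM. It stood at 2.70 ± 0.772 and 2.54 ± 0.297 CPM in affected dogs, and the interaction was -3.54 ± 0.45. On chromosome 37, a gene from 8547922 to 8731180 went from 3.07 ± 0.602 to 63.3 ± 34.0 CPM in controls, with control day 14 replicates 1 and 4 at 78.8 and 115 CPM and the rest of that group at 32.8 to 51.3 CPM. In affected dogs it stood at 1.89 ± 0.929 and 3.20 ± 0.699 CPM, and the interaction was -3.61 ± 0.47.

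The other genes among the 10 smallest p of this direction had interactions of -1.62 to -3.01. They lay on chromosome 37 from 14293934, chromosome 24 from 36129001, chromosome 16 from 34801120, chromosome 30 from 7468792 and chromosome 32 from 11189932. The one on chromosome 37 was the only one of the 10 that also rose in affected dogs by the test, by 0.49 ± 0.15 on the log2 scale (adjusted p = 0.0264) against 2.11 ± 0.16 in controls. In every one of the 10 genes all 5 control libraries of day 14 exceeded the other 15 libraries.

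**Figure D5:**
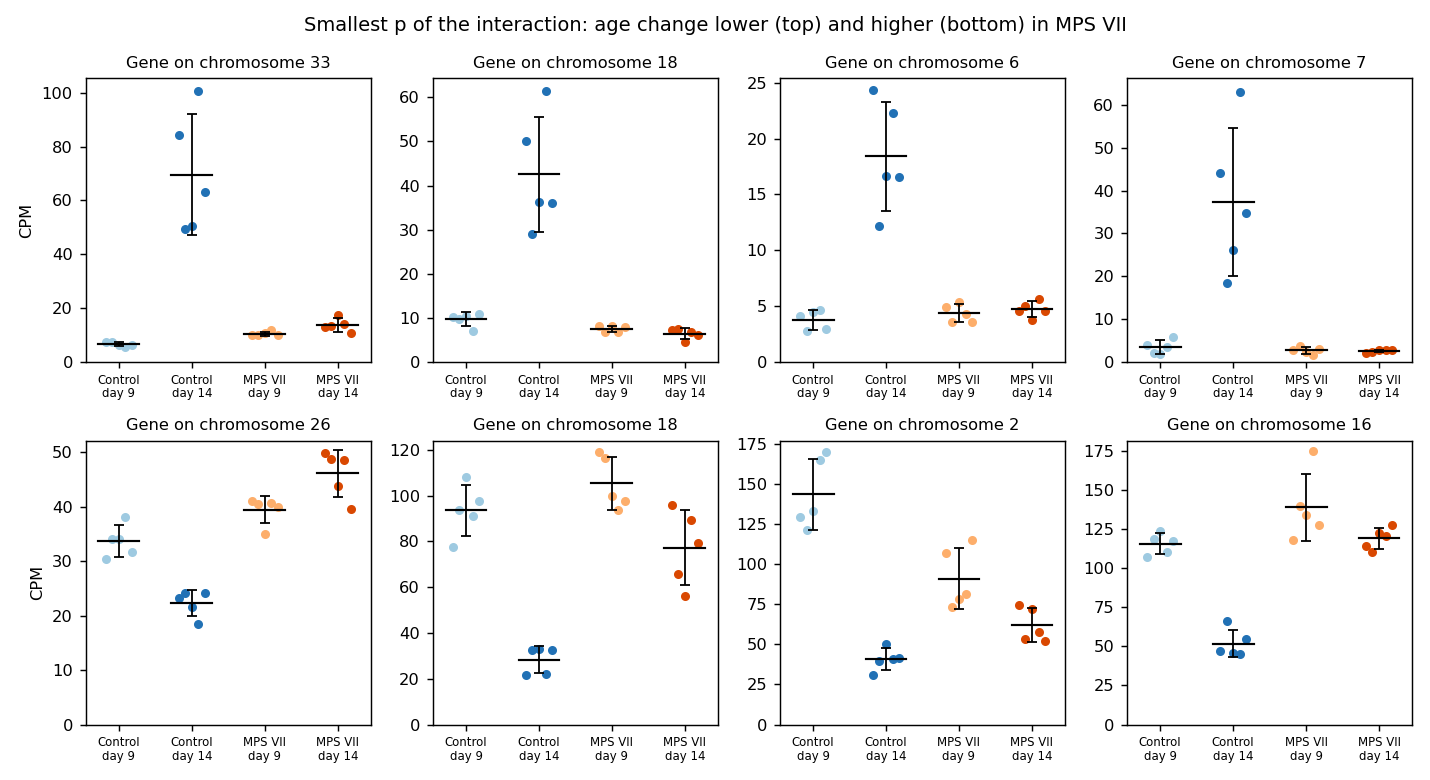
CPM in each of 5 libraries per group (points, in replicate order from left to right), with the mean and SD (lines), for the 4 genes with the smallest p and a negative interaction (top) and the 4 with a positive one (bottom). In the top row the control group of day 14 stands above the other 3 groups, and in the bottom row below them.

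Among genes with at least 2 CPM in the highest group, 3 of the 4 largest negative interactions were in genes with group means under 1 CPM outside the controls of day 14. The other was in the single-exon gene that starts at 11051535 on chromosome 32, whose means outside that group were 5.91, 15.5 and 3.82 CPM. The gene on chromosome 4 from 57934459 to 57958154 had summed counts of 6 and 675 in controls at day 9 and day 14, and of 19 and 0 in affected dogs. With the group at 0 set to a floor of 3 summed counts, affected dogs of day 14 were 209-fold lower than controls of that age. They were 5.55-fold lower than affected dogs of day 9, a value that rests on 19 counts. The floor allows for counting error in the group at 0 only. The other counts were taken as observed, and the spread between animals is not covered. The fitted interaction of -11.64 (edgeR adjusted p = 0.00117) depends on the prior count. Another, on chromosome 13 from 33735489 to 33974004, had 43.1, 11.6, 23.6, 109 and 31.1 CPM in controls at day 14, of which replicate 4 was the highest, and at most 1.45 CPM in each of the other 15 libraries. Its interaction was -8.93 ± 1.29, and it passed in edgeR under each other setting and each left-out library, but not with limma voom. The gene on chromosome 9 from 26017194 to 26023071 went from 0.546 ± 0.520 to 12.2 ± 5.84 CPM in controls and stood at 0.812 ± 0.660 and 0.303 ± 0.152 CPM in affected dogs, an interaction of -5.86 ± 0.85 (edgeR adjusted p = 0.00117).

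By normalised count, the most abundant gene with a negative interaction lay on chromosome 12 from 71801379 to 71809983. Its control libraries held 1482, 1688, 1787, 879.5 and 260.4 CPM at day 9 and 15905, 12978, 20868, 13412 and 11445 CPM at day 14, and its affected libraries 1477, 531, 252, 648 and 125 CPM and 636, 361, 889, 989 and 668 CPM. The lowest control library of day 14 stood at 11445 CPM and the highest of all other libraries at 1787 CPM. The level at day 9 varied widely between animals of both genotypes, and did not differ between them by the test (-1.01 ± 0.52, adjusted p = 0.257). The interaction was -3.39 ± 0.75 (edgeR adjusted p = 0.0183).

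The only run of 3 neighbouring tested genes with interactions of at least 2-fold in the same direction lay on chromosome 32 from 11051535 to 11362391, and all 3 were negative. The interactions were -6.77 ± 1.12, -3.01 ± 0.43 and -2.47 ± 0.39. Per kilobase of exon, the level in controls of day 14 was 121, 3202 and 3758 CPM per kb, and in affected dogs of that age 2.92, 128 and 790.3 CPM per kb. The first of the genes has a single exon, and affected day 9 replicate 3 held 59.98 CPM of it while the other affected libraries of that age had 1.52 to 8.67 CPM. Without that library its interaction was -4.94 (edgeR adjusted p = 0.00405).

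Genes with a positive interaction mostly fell in controls. The smallest p belonged to ENSCAFG00000008363, on chromosome 26 from 7896837 to 7914234, with 30.4, 34.1, 34.0, 38.0 and 31.6 CPM in controls at day 9 and 23.2, 24.1, 21.6, 18.4 and 24.1 CPM at day 14. Affected dogs had 41.0, 40.5, 35.0, 40.8 and 40.0 CPM at day 9 and 49.8, 48.8, 43.9, 48.6 and 39.6 CPM at day 14. The control libraries of day 14 were below all others, and the affected groups overlapped. The log2 change was -0.59 ± 0.10 in controls and 0.23 ± 0.09 in affected dogs (edgeR adjusted p = 0.0864), an interaction of 0.82 ± 0.13 (adjusted p = 0.00291).

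The gene ENSCAFG00000006865, on chromosome 18 from 32476290 to 32547935, had 77.5, 93.8, 108, 90.9 and 97.4 CPM in controls at day 9 and 21.5, 32.4, 33.1, 22.1 and 32.5 CPM at day 14, and in affected dogs 119, 116, 100.04, 93.8 and 97.7 CPM and 95.9, 65.7, 56.3, 89.3 and 79.3 CPM. It fell in both genotypes, with log2 changes of -1.73 ± 0.15 in controls and -0.45 ± 0.15 in affected dogs (edgeR adjusted p = 0.0342). The interaction was 1.28 ± 0.21 (adjusted p = 0.00303). Another, on chromosome 2 from 28440950 to 28510822, also fell in both, from 144 ± 22.1 to 40.6 ± 6.83 CPM in controls and from 91.0 ± 18.9 to 62.0 ± 10.7 CPM in affected dogs. It was lower in affected dogs than in controls at day 9 (log2 difference -0.66 ± 0.15, edgeR adjusted p = 0.00695) and higher at day 14 (0.61 ± 0.15, adjusted p = 0.00546). In the gene on chromosome 16 from 44882118 to 45066154, controls fell from 116 ± 6.71 to 51.8 ± 8.91 CPM and affected dogs stood at 139 ± 21.5 and 119 ± 6.77 CPM, an interaction of 0.93 ± 0.16.

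The other genes among the 10 smallest p with a positive interaction had values of 0.63 to 1.90, and their starts lay at 12122549 on chromosome 6, 20919214 on chromosome 7, 119915412 on chromosome X, 9390964 on chromosome 23, 71644322 on chromosome 8 and 36063709 on chromosome 30. In the one on chromosome 7, controls fell from 123 ± 10.4 to 68.4 ± 19.2 CPM and affected dogs stood at 147 ± 22.8 and 180.5 ± 17.8 CPM. The one on chromosome 23 from 9390964 to 9766774 was already higher in affected dogs at day 9, at 50.8 ± 10.3 CPM against 22.5 ± 3.39 CPM, and at day 14 at 55.7 ± 9.89 CPM against 10.2 ± 2.52 CPM. The same held for the one on chromosome 8 from 71644322 to 71718825, with a genotype difference of 1.14 ± 0.24 at day 9 and 3.04 ± 0.27 at day 14 on the log2 scale. There, affected day 14 replicate 4 had 14.6 CPM and the other libraries of its group 5.75 to 8.08 CPM, and without it the interaction was 1.62 (edgeR adjusted p = 0.00863).

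Among genes with at least 2 CPM in the highest group, the largest positive interaction was in the gene on chromosome 2 from 70225456 to 70234420, which was also the most abundant of this direction. Its control libraries held 1128, 1328, 1322, 1286 and 1173 CPM at day 9 and 233, 256, 121, 119 and 230.3 CPM at day 14. Its affected libraries held 2446, 2535, 2225, 3729 and 1579.8 CPM at day 9 and 2487, 1260.0, 934, 2060.3 and 1042 CPM at day 14. Every affected library exceeded every control library of the same age, and at day 14 the SD on the CPM scale was 682 in affected dogs and 66.3 in controls. The age change was -2.70 ± 0.29 in controls and -0.68 ± 0.27 in affected dogs (edgeR adjusted p = 0.0732), and the interaction 2.02 ± 0.39 (adjusted p = 0.00763). Next came the gene on chromosome 22 from 9860291 to 9865272, in which controls fell from 3.84 ± 0.518 to 0.809 ± 0.292 CPM and affected dogs stood at 2.86 ± 1.09 and 2.42 ± 0.446 CPM, an interaction of 1.998 ± 0.38. The gene on chromosome 9 from 21710269 to 21715311 started lower in affected dogs, at 1.38 ± 0.648 CPM against 6.002 ± 1.62 CPM in controls at day 9, and stood at 1.71 ± 0.220 and 1.92 ± 0.966 CPM at day 14. Controls had fallen towards the affected level, and the interaction of 1.96 ± 0.45 (edgeR adjusted p = 0.0206) lost its call without control day 9 replicate 2 or control day 14 replicate 4, with adjusted p of up to 0.0509. The second most abundant gene of this direction, on chromosome X from 84351485 to 84377324, went from 1634 ± 159 to 599 ± 134 CPM in controls. It stood at 1524 ± 474 and 1213 ± 183 CPM in affected dogs. Its interaction of 1.12 ± 0.28 (edgeR adjusted p = 0.0321) lost its call in 10 of 20 fits that left out a library, with adjusted p of up to 0.0798.

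The age change was called in opposite directions in the genotypes in 13 genes with a negative and 4 with a positive interaction. Of those with a positive interaction, the gene on chromosome 29 from 23350800 to 23399408 had 224, 239, 299, 312 and 276 CPM in controls at day 9 and 191, 244, 189, 148 and 202 CPM at day 14, and 192, 297, 197, 245 and 263 CPM and 269, 297, 346, 354 and 383 CPM in affected dogs. It fell by 0.47 in controls and rose by 0.47 in affected dogs on the log2 scale (edgeR adjusted p = 0.014 and 0.0277), and the libraries of day 9 and day 14 overlapped in each genotype. The genes on chromosome 29 from 35390259 and chromosome 13 from 38113729 had interactions of 1.05 ± 0.25 and 0.56 ± 0.14. Each kept its call in 16 of 20 fits that left out a library, and the one on chromosome 13 lost it without a filter on low counts. Of those with a negative interaction, one on chromosome 11 from 68755644 to 68759219 increased from 34.0 ± 2.24 to 45.2 ± 6.94 CPM in controls and fell from 40.1 ± 5.15 to 29.9 ± 1.42 CPM in affected dogs, with all affected libraries of day 14 below those of day 9. Another, on chromosome 7 from 43171580 to 43175063, likewise rose from 53.0 ± 4.60 to 72.8 ± 11.8 CPM and fell from 50.2 ± 10.3 to 38.0 ± 2.90 CPM. Over the 13 genes with a negative interaction, the median change was 0.46 in controls and -0.52 in affected dogs. The smallest p of the 13 was that of the gene on chromosome 4 from 57934459 described above. Its fitted changes were 6.73 in controls and -4.91 in affected dogs (edgeR adjusted p = 4.02e-06 and 0.0289). They rest on summed counts of 6 and 675 in controls and 19 and 0 in affected dogs.

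The 45 genes that were higher in affected dogs at day 9 and not called at day 14 were a further class. Those named from this class, and those below, were chosen after their values were seen. One of them, on chromosome 10 from 7366250 to 7415694, had 40.8, 35.6, 46.7, 34.7 and 33.9 CPM in controls at day 9 and 85.4, 62.4, 63.7, 76.1 and 66.8 CPM at day 14. In affected dogs it had 61.0, 68.1, 58.4, 64.6 and 57.4 CPM at day 9 and 66.2, 74.8, 64.9, 67.0 and 67.1 CPM at day 14. The controls of day 9 were below all other libraries, and the affected libraries of both ages overlapped with the controls of day 14. The log2 difference between genotypes was 0.69 ± 0.10 at day 9 (edgeR adjusted p = 0.000113) and -0.06 ± 0.10 at day 14 (adjusted p = 0.738), and the interaction -0.75 ± 0.15. Another, on chromosome 36 from 5020522 to 5071506, rose from 6.84 ± 0.592 to 17.6 ± 2.01 CPM in controls and from 10.8 ± 1.32 to 15.4 ± 1.46 CPM in affected dogs. The gene on chromosome 7 from 28999512 to 29069232 rose from 1.09 ± 0.225 to 7.86 ± 1.23 CPM in controls and from 3.20 ± 1.55 to 5.18 ± 0.637 CPM in affected dogs. In that gene, all control libraries of day 14 were still above all other libraries. Its genotype difference at day 14 was -0.60 ± 0.23 on the log2 scale (edgeR adjusted p = 0.0674). Affected day 9 replicate 3 was the highest of its group at 5.85 CPM, and without that library the interaction was -1.80 (edgeR adjusted p = 0.000874).

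The 8 genes that rose with age in affected dogs alone included one on chromosome 12 from 32932632 to 33063847, with 77.3, 83.0, 91.2, 107 and 111 CPM in controls at day 9 and 115, 143, 84.7, 101 and 105 CPM at day 14, and 70.2, 99.99, 63.2, 81.2 and 73.0 CPM and 164, 151, 189, 154 and 176 CPM in affected dogs. All affected libraries of day 14 were above all other libraries. The change was 1.11 ± 0.14 in affected dogs and 0.22 ± 0.14 in controls (edgeR adjusted p = 0.207), and the interaction 0.88 ± 0.20 (adjusted p = 0.0183). Another of the 8, on chromosome 13 from 43877469 to 43900925, rose from 92.4 ± 18.3 to 183 ± 39.0 CPM in affected dogs and stood at 92.2 ± 11.8 and 80.0 ± 22.9 CPM in controls. Among the 9 that fell in affected dogs alone, one on chromosome 26 from 11046160 to 11169891 went from 25.7 ± 2.62 to 18.9 ± 2.58 CPM, beside 18.2 ± 2.14 and 21.7 ± 1.33 CPM in controls.

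A gene without a call need not have changed alike in both genotypes. The 95% interval of the interaction lay wholly within 1 log2 unit on either side of 0 in 8439 of 14550 genes (58.0%), and its median margin either side was 0.53. Of the genes without a call, 1098 had an estimate of at least 1 log2 unit. Of the 562 genes that rose in both genotypes and at least 2-fold in controls, 256 had an interval within 1 log2 unit (45.6%), 57 had a called interaction (10.1%) and 32 had an uncalled estimate of at least 1. Of the 135 that fell in both and at least 2-fold in controls, 21 had an interval within 1 log2 unit (15.6%) and 10 had a called interaction (7.41%). The median margin either side there was 0.81, against 0.55 in the 562 genes. The share with a called interaction was 3.26% over all tested genes. Both sets were picked by age changes that share their libraries with the interaction, so their shares of calls are a description only.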

How the data were processed

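Libraries of 20 dogs came from a stranded mRNA kit, read in pairs of 100 bases, and CanFam3.1 with build 77 of Ensembl served for mapping, per the labels' protocols. According to the submitters' processing notes the tools were edgeR, HTSeq, STAR 2.4.0j, bcl2fastq and CASAVA 1.8.2, with no role stated. The authors' deposited table gives raw counts for 24580 genes, and 0 of its count columns belonged to no sample. Most low counts are even numbers, as would follow from counting each mate of a pair, so a fit on halved counts was among the alternatives.

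The filter was filterByExpr with the 4 groups (14550 genes left), and scaling was by TMM. One mean per group was fitted with edgeR 4.0.16 in R 4.3.3 (robust quasi-likelihood fit), and the interaction and 4 simple comparisons were tested, with Benjamini-Hochberg adjustment over all tested genes. Standard errors are the log2 value divided by the square root of F, and 95% intervals use its t quantile. The contrast was checked on simulated counts. Alternatives were other scalings, filters and tools (limma 3.58.1, DESeq2 1.42.0), halved counts and each library left out. Thinning to the smallest library total was added after seeing the data.

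Named genes are those past the threshold with at least 2 CPM in the highest group: in each direction the 10 smallest p, the 4 largest interactions, the 2 most abundant and 3 with opposite age changes. Members and lists were chosen with earlier results of these data known. Lists by gene symbol were not analysed here, since no identifier matched a symbol. Each library is 1 animal, per the labels.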

Additional observations from a re-analysis of the deposited data

Results flagged for a closer look

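The age change differed between genotypes by the edgeR test of the difference itself in 120 genes in which it was higher in affected dogs and 354 in which it was lower. In 196 groups of 5 libraries, each gene named and 5 library measures were checked for a library far from the rest of its group, and 13 of these groups held one, from 7 libraries in all. If the values were independent and normally distributed, about 1 in 20 groups would be flagged. CPM need not be so distributed and the groups share libraries, so the 13 cannot be set against that rate.

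Affected day 9 replicate 3 was far from its group in 6 of the 13 groups. It was low in the gene on chromosome 26 from 7896837 to 7914234, at 35.1 CPM, and in the gene on chromosome 8 from 71644322 to 71718825, at 3.79 CPM. It was high in the gene on chromosome 16 from 34801120 to 34817289, at 4.82 CPM, in the single-exon gene on chromosome 32 from 11051535, at 59.98 CPM, and in the gene on chromosome 22 from 5007837 to 5059465, at 61.8 CPM. The 20 most abundant genes took 23.0% of its counts. All 5 genes kept their call without that library.

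Affected day 14 replicate 4 was high in the gene on chromosome 8 from 71644322, at 14.6 CPM. Affected day 14 replicate 2 was low in the gene on chromosome 13 from 38113729 to 38121801, at 13.9 CPM. The same library was high in the gene on chromosome 10 from 7366250, at 74.8 CPM. Control day 9 replicate 4 was high in the gene on chromosome 7 from 20919214 to 20940792, at 141 CPM. Control day 9 replicate 2 was high in the gene on chromosome 9 from 21710269 to 21715311, at 8.84 CPM. Among library measures, even numbers made up 71.2% of the low counts in affected day 9 replicate 1, low for its group, and the 20 most abundant genes took 42.7% of the counts in control day 9 replicate 1, low for its group.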

How the results depend on the processing

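No paired analysis was possible because the labels give no replicate numbers and no litters. The replicate numbers used here follow the order of the samples within each group, and equal numbers do not pair animals. Under the 10 settings other than leaving out a library, the interaction count stayed within 1.5 times the 474 found, in both directions, except with DESeq2. DESeq2 called 932 genes, 301 higher and 631 lower, with 450 that rose in controls and 227 that fell in controls among those not called in affected dogs. The scalings moved the median interaction of all genes by less than 0.05. When each library was left out in turn, the count ran from 199 to 759, the higher genes from 40 to 271 and the lower genes from 159 to 488. The genes that rose in controls without a call in affected dogs ran from 120 to 338, and those that fell in controls from 30 to 175. Such fits use fewer samples, but the count of 759 came without affected day 9 replicate 3, where the share of lower genes went from 74.7% to 64.3%. Of the 44 named genes, 42 kept their call under the other settings, 38 with each library left out and 37 in all of these fits, and none of their values changed sign. All of these fits share libraries with the fit that chose the genes, so the kept signs are no separate support. Thinned to the smallest library total, 445 genes passed. Low counts limit what can be seen: the median standard error was 0.67 in the lowest quintile by mean CPM, and an interaction there must be large to pass.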

Other observations

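Neighbouring pairs of tested genes with an interaction of at least 2-fold in the same direction were found at 7 places besides the run on chromosome 32, of which 5 were negative and 2 positive. The pair with the largest negative value lay on chromosome 10 from 7473922 to 7726642, with interactions of -5.29 and -2.11. The next lay on chromosome 25 from 36764074 to 36858932, with -4.59 and -1.01, and another on chromosome 7 from 19668011 to 19955853, with -2.88 and -1.86. The positive pairs lay on chromosome 24 from 18453942 to 18528305, with 1.30 and 1.69, and on chromosome X from 119651251 to 119937893, with 1.09 and 1.22. Whether neighbours occur more often than by chance was not tested, and these places were described after their values were seen.

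Over all tested genes 3.26% had an interaction, 2.43% negative and 0.825% positive. By numbered chromosome the share ran from 0.752% on chromosome 35 (1 of 133 tested genes) to 7.80% on chromosome 38 (11 of 141), and the second highest was 7.14% on chromosome 32 (13 of 182). These are the ends of the range, and whether chromosomes differ was not tested. On the X chromosome the share was 2.88% (16 of 555), near that of all genes. Of the 17 tested mitochondrial genes 0 had a call by edgeR, limma voom or DESeq2, and at an unadjusted p under 0.05 there were 0 by edgeR, 1 by limma voom and 1 by DESeq2. With so few genes, 0 calls is not set apart from the overall share of 3.26%. Calls were more frequent in genes with more exon sequence, at 1.71% in the quintile with 52 to 1038 bases and 4.71% in the quintile with at least 4626 bases. The median standard error fell over the same quintiles from 0.34 to 0.21, while the median interaction was 0.01 and -0.02. Among genes in the lowest quintile by mean CPM, 1.10% had a call, against 4.12% in the highest, with median standard errors of 0.67 and 0.18.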
